A study of Homo sapiens with 15 samples.

Results

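The 9 protein-coding genes CD69, IRF2BP2, PHF3, DDIT4, ADM, MID1IP1, LIN7B, FOXO1 and PPP4R3A were picked from 19620 listed genes because OCI-AML5 cells held less of their RNA after the BET degrader ARV-825 than after the BET inhibitor OTX015. No threshold was stated for the choice. The values that chose these 9 genes were their levels in the ARV-825 and OTX015 libraries, so every value in those libraries is given as a description, with no test. Their levels in the RUNX1 shRNA and non-targeting shRNA libraries were not used for the choice and were tested.

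OCI-AML5 is an established acute myeloid leukemia cell line, grown in medium with 20% serum and 10 ng/mL of the growth factor GM-CSF, which all groups received. The drug experiment had cells given 1000 nM ARV-825 for 4 h, cells given 1000 nM OTX015 for 4 h, and untreated control cells. The knockdown experiment had cells that received RUNX1 shRNA and cells that received the non-targeting shRNA shNT, each for 72 h. Each of the 5 groups had 3 libraries of total RNA from this 1 line, called biologic triplicates, and nothing says whether they came from separate cultures, so p-values reflect only how far these libraries spread, which may be technical. Titles of the RUNX1 shRNA libraries name Runx3, whereas their treatment label names RUNX1 and sets the group here.

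BET proteins bind acetylated lysines on histones through their bromodomains and help RNA polymerase II to start and to elongate at many genes. OTX015 occupies the bromodomains and displaces the proteins from chromatin while leaving them in the cell. ARV-825 joins an OTX015 moiety to a ligand of the ubiquitin ligase subunit cereblon, so that BET proteins are tagged and degraded by the proteasome. RUNX1 is a DNA-binding regulator of blood formation that is often mutated in acute myeloid leukemia.

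The products of these 9 genes do different things. CD69 is a membrane C-type lectin of activated lymphocytes that holds the receptor S1PR1 inside the cell. ADM encodes adrenomedullin, a secreted vasodilator peptide. DDIT4 (REDD1) restrains the growth kinase complex mTORC1 through the TSC proteins, and both DDIT4 and ADM are textbook targets of hypoxia and stress signals. FOXO1 is a forkhead transcription factor held out of the nucleus by AKT. IRF2BP2 is a transcriptional corepressor. PHF3 binds the phosphorylated tail of RNA polymerase II through its SPOC domain. PPP4R3A is a regulatory subunit of protein phosphatase 4, LIN7B is a small scaffold protein of cell junctions and synapses, and MID1IP1 binds MID1 at microtubules and promotes polymerization of acetyl-CoA carboxylase.

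RefSeq promoter windows, from 250 bases before to 50 bases after an annotated start on GRCh38.p14, were at hand for 8 of the 9 genes and not for CD69. The expression files use hg19, and the windows serve only to show sequence. The 5 windows below are shown because DDIT4 and ADM had the widest spread between libraries, MID1IP1 and FOXO1 among the narrowest, and PHF3 holds the rarest of the words searched. Each is 300 bases, 5′ to 3′ on the strand of the gene, and capitals mark a match to a searched word or to its reverse complement (ATTGG for CCAAT). DDIT4 lies at chr10:72273674-72273973 on the plus strand, ADM at chr11:10304823-10305122 plus, MID1IP1 at chrX:38801209-38801508 plus, FOXO1 at chr13:40666592-40666891 minus, and PHF3, its start 1 of 3, at chr6:63635552-63635851 plus.
DDIT4: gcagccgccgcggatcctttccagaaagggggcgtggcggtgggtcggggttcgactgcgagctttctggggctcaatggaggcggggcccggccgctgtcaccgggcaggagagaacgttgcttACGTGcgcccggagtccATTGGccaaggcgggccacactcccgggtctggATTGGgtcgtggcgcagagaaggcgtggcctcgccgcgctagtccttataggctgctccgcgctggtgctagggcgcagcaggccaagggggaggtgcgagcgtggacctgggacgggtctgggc
ADM: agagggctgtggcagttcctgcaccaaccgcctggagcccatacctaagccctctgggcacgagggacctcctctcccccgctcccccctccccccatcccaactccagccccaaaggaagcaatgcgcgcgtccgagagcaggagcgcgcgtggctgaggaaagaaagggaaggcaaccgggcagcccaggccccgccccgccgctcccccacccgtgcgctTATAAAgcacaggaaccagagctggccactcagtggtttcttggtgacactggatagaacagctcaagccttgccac
MID1IP1: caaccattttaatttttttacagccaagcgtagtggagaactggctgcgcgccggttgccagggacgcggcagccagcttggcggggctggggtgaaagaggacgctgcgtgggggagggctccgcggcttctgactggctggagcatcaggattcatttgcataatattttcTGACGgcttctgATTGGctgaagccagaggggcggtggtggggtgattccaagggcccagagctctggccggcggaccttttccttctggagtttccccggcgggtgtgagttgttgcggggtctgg
FOXO1: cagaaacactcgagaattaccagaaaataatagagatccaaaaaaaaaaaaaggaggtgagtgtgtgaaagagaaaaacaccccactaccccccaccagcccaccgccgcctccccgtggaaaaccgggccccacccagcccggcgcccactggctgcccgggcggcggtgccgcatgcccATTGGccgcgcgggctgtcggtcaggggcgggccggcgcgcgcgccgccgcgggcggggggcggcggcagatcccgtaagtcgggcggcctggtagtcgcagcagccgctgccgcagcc
PHF3: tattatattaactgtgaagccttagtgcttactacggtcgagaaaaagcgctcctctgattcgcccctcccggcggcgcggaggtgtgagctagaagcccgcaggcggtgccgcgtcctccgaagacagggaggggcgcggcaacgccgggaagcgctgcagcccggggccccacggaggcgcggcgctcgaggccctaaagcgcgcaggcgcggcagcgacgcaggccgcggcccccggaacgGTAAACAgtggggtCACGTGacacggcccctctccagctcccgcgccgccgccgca

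These words were searched on both strands of every window. They were the RUNX words TGTGGT and TGCGGT, the E-box CACGTG, the hypoxia response core ACGTG, which the E-box contains, the cAMP response core TGACG, the TATA word TATAAA, the CCAAT box, and the FOXO word GTAAACA. ADM had TATAAA starting 27 bases before its start, a word in 5.79% of 12239 promoters of tested genes. DDIT4 had ACGTG at -125, a word in 26.0% of promoters, and CCAAT on the other strand at -108 and -75, a word in 35.0%. MID1IP1 had TGACG at -77, a word in 32.7% of promoters, and CCAAT on the other strand at -65. FOXO1 had CCAAT on the other strand at -69. PHF3 had GTAAACA at -6, a word in 2.57% of promoters, and CACGTG at 9 bases after the start, a word in 9.73%. PPP4R3A had TGACG at -26, and the windows of IRF2BP2 and LIN7B held none of the words. A RUNX word, found in 19.0% of promoters, was in none of the windows of the 8 genes. The GC content of the windows at the first listed start was 60.0% in MID1IP1 to 75.3% in LIN7B, beside a median of 65.0% over all promoters.

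Levels are in FPKM, which scales fragments to transcript length and to library size, and can be compared between genes. In untreated cells the 9 genes spanned a wide range. IRF2BP2 was highest at 207 FPKM, above 97.1% of the 10819 genes tested in the drug libraries (those averaging 1 FPKM or more). PPP4R3A followed at 54.1 FPKM and MID1IP1 at 32.8. PHF3 at 19.0 FPKM and DDIT4 at 18.6 were neighbours whose libraries overlapped, and ADM stood at 7.48. FOXO1 at 3.79 FPKM and CD69 at 3.49 were also neighbours with overlapping libraries, and LIN7B was lowest at 1.80 FPKM. All 9 passed the filter on low values in both tables.

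The ARV-825 libraries lay below the OTX015 libraries for all 9 genes, which is what they were picked for, and the same held for 35.2% of all tested genes. The 9 genes divided into 4 arrangements around the untreated level. For 5 genes (CD69, PHF3, MID1IP1, FOXO1 and PPP4R3A), all ARV-825 libraries were below and all OTX015 libraries above all control libraries, an arrangement found in 3.58% of tested genes. DDIT4 and ADM were above control with OTX015, and their ARV-825 libraries overlapped control. LIN7B was below control with ARV-825, and its OTX015 libraries overlapped control. IRF2BP2 was below control with either drug.

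**Figure D1:**
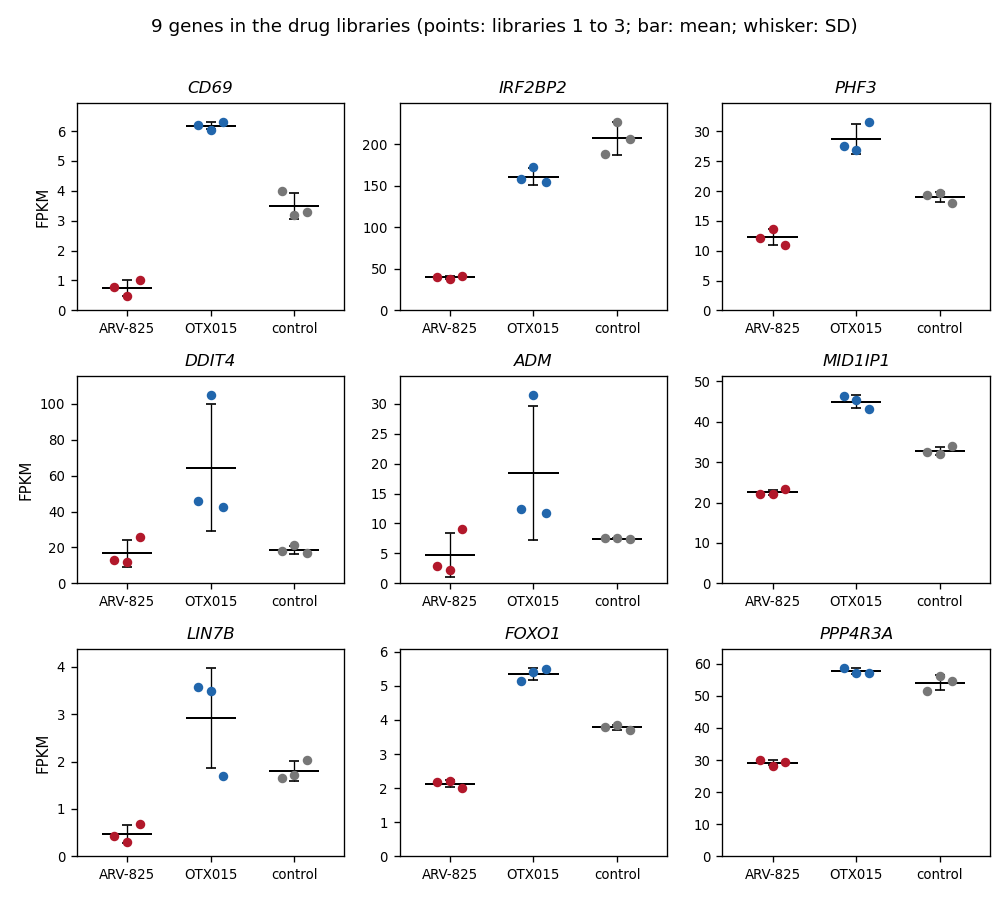
FPKM of the 9 genes in the 3 ARV-825, 3 OTX015 and 3 control libraries of OCI-AML5 cells, 1 panel per gene with its own linear axis; points are libraries 1 to 3 from left to right, bars are means and whiskers SD. ARV-825 points lie under the OTX015 points in every panel, and 1 library in each drug group stands above the other two for DDIT4 and ADM (25.6 and 105 FPKM for DDIT4).

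Counted by group, 7 of 9 genes had all ARV-825 libraries below control, beside 39.3% of tested genes. The same number, 7 of 9, had all OTX015 libraries above control, beside 39.3% of tested genes, and 1 of 9 had them below control, beside 36.1%. The median difference over the 9 genes on the log2(FPKM + 1) scale was -0.75 for ARV-825 minus control, against -0.00797 over all tested genes. For OTX015 minus control it was 0.45 over the 9 genes and 0.03 over all. For ARV-825 minus OTX015 it was -1.39 over the 9 genes and -0.04 over all, and 7 of the 9 genes were at least 2-fold lower on this scale, as were 1.12% of tested genes. MID1IP1 and PPP4R3A fell just short of 2-fold, each at -0.96, and FOXO1 was just past it at -1.02. Ranked from the lowest difference among 10819 genes, the 9 stood between place 8 (CD69) and place 159 (PPP4R3A). In these bulk libraries, fewer cells that carry an RNA and less of it per cell cannot be told apart.

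**Figure D2:**
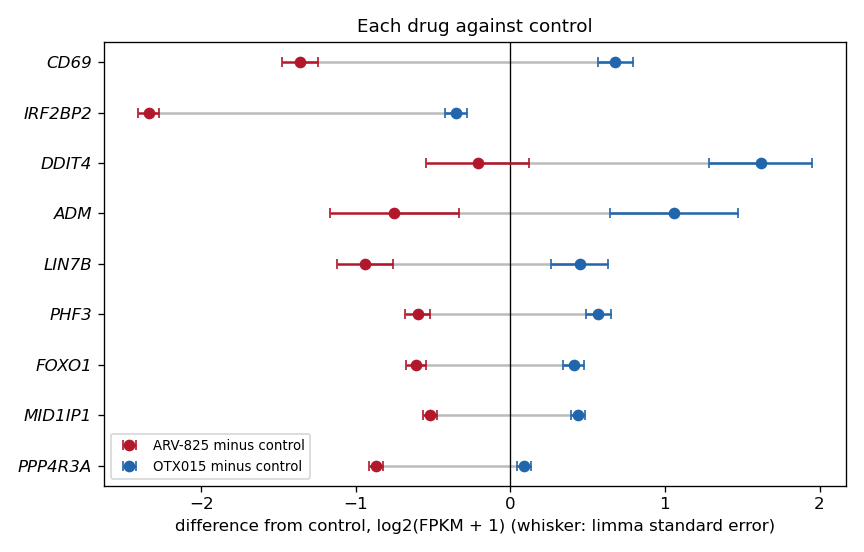
Difference from control on the log2(FPKM + 1) scale for ARV-825 (red) and OTX015 (blue), 1 row per gene, ordered by the difference between the drugs with CD69 at the top; whiskers are standard errors from the limma fit and grey lines join the drugs. Red points lie left of 0 for all 9 genes (from -0.21 for DDIT4 to -2.34 for IRF2BP2), and blue points lie right of 0 for all but IRF2BP2 (-0.35).

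CD69 had 0.768, 0.481 and 1.02 FPKM in the ARV-825 libraries, 6.20, 6.05 and 6.30 in the OTX015 libraries, and 4.00, 3.18 and 3.30 in control. The 3 groups did not overlap, and the ARV-825 mean was 12.2% of the OTX015 mean and 21.6% of control. On the log2(FPKM + 1) scale CD69 was lower by 2.04 ± 0.114 (SE) than with OTX015, and OTX015 stood 0.68 above control. CD69 is best known from lymphocytes, and the T cell genes CD3E, CD3G, CD2, CD7 and LCK each averaged under 0.1 FPKM over the drug libraries. CD3D averaged 0.448 FPKM with ARV-825, 0.245 with OTX015 and 0.325 in control. CD8A averaged 2.65 FPKM with ARV-825, 1.58 with OTX015 and 1.65 in control, and IL7R 5.03 with ARV-825, 5.34 with OTX015 and 25.7 in control. Of 16 T and NK cell markers, 4 averaged 1 FPKM or more (NKG7, NCAM1, IL7R and CD8A), with NKG7 the highest at 37.4 FPKM. The sum of the 16 was 72.5 to 77.2 FPKM with ARV-825, 53.3 to 53.8 with OTX015 and 72.8 to 74.8 in control. Of 10 B cell markers, 2 averaged 1 FPKM or more, with FCER2 the highest at 62.9 FPKM. The sum of the 10 was 80.4 to 87.3 FPKM with ARV-825, 52.1 to 54.6 with OTX015 and 64.3 to 66.0 in control. Whether the CD69 reads came from particular cells was not tested.

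Closest to CD69 in family are the CLEC2 lectins, which lie in the same gene cluster. CLEC2B averaged 4.13 FPKM with ARV-825, 8.77 with OTX015 and 10.6 in control. It was lower with ARV-825 than with OTX015 (log2 difference -0.93 ± 0.0804 SE, limma adjusted p = 7.95e-06), and unlike CD69 it was also below control with OTX015. CLEC2D went the other way at 2.24 FPKM with ARV-825 and 1.59 with OTX015 (0.34, limma adjusted p = 0.0461). Its libraries overlapped, as the third OTX015 library (2.26 FPKM) lay within the ARV-825 range of 2.11 to 2.42. Of 10 tested genes of the CD69 relatives and S1P receptors list, 7 were higher and 2 lower with ARV-825 than with OTX015, and 9 of 10 were lower with OTX015 than in control. Over all tested genes, 24.7% were higher and 33.4% lower with ARV-825 than with OTX015, and 36.1% were higher and 33.5% lower with OTX015 than in control. These shares stand beside the counts of each later list too. The other lowered gene was the S1P receptor S1PR4, at 9.41 FPKM with ARV-825 and 14.9 with OTX015. S1PR1, the receptor that CD69 holds inside the cell, averaged under 0.1 FPKM in each drug group.

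IRF2BP2 had 39.9, 37.9 and 41.8 FPKM in the ARV-825 libraries, 158, 173 and 154 in the OTX015 libraries, and 188, 227 and 206 in control. This was the only one of the 9 genes below control with OTX015, at 78.1% of it, whereas ARV-825 left 19.3%. The difference between ARV-825 and OTX015 was -1.99 ± 0.0705 (SE) on the log2(FPKM + 1) scale. Its paralog IRF2BPL had the same order, averaging 5.39 FPKM with ARV-825, 10.6 with OTX015 and 16.0 in control, and differed between the drugs by -0.87 ± 0.0969 (limma adjusted p = 3.66e-05). IRF2BP1 did not pass the test between the drugs, at 12.5 FPKM with ARV-825 and 13.4 with OTX015 (-0.10, limma adjusted p = 0.185), and it was above control with either. Among 5 tested relatives and partners, 1 was higher (the corepressor CBFA2T3, 14.3 FPKM with ARV-825 against 8.36 with OTX015) and 2 were lower.

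PHF3 had 12.2, 13.7 and 10.9 FPKM in the ARV-825 libraries, 27.5, 26.9 and 31.6 in the OTX015 libraries, and 19.4, 19.6 and 18.0 in control. It stood about as far below control with ARV-825 (-0.60 ± 0.0835 SE) as above it with OTX015 (0.57). The SPOC-domain relative DIDO1 was below control with either drug, averaging 7.17 FPKM with ARV-825, 9.91 with OTX015 and 12.3 in control (ARV-825 minus OTX015 -0.42, limma adjusted p = 0.000206). Of 8 tested genes of the elongation list, 3 were lower with ARV-825 than with OTX015 and 5 did not pass the test. The large subunit of RNA polymerase II, POLR2A, averaged 248 FPKM with ARV-825, 281 with OTX015 and 69.9 in control, a rise over control of 1.81 and 2.00 on the log2 scale that passed the test for each drug. The difference in POLR2A between the drugs did not (-0.18, limma adjusted p = 0.0662).

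DDIT4 had 13.1, 11.8 and 25.6 FPKM in the ARV-825 libraries, 45.6, 105 and 42.5 in the OTX015 libraries, and 17.9, 21.1 and 16.9 in control. ARV-825 and control overlapped, and the third ARV-825 library and the second OTX015 library were 2.05 and 2.39 times the mean of the other two of their group. With all libraries DDIT4 was 346% of control with OTX015 and 90.4% with ARV-825. Without those 2 libraries the means were 12.5 FPKM with ARV-825, 44.1 with OTX015 and 18.6 in control, and the difference between ARV-825 and OTX015 was -1.74 in place of -1.83 ± 0.333 (SE).

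The mTORC1 list, to which DDIT4 belongs by function, moved in both directions. Of 21 tested genes, 3 were higher and 7 lower with ARV-825 than with OTX015. These were 14.3% and 33.3% of the list, beside 24.7% and 33.4% of all tested genes. The paralog DDIT4L was below control with either drug, averaging 1.01 FPKM with ARV-825, 1.81 with OTX015 and 2.56 in control (ARV-825 minus OTX015 -0.48, limma adjusted p = 0.00137). SESN2, a stress-induced inhibitor of mTORC1 like DDIT4, had the opposite order, at 22.4 FPKM with ARV-825, 14.2 with OTX015 and 9.60 in control (0.62, limma adjusted p = 3.49e-05). SESN1 was also higher with ARV-825 than with OTX015 (0.31), and SESN3 did not pass the test between the drugs, at 13.6 FPKM with ARV-825, 14.6 with OTX015 and 3.57 in control. DEPDC5, a subunit of the GATOR1 inhibitor of mTORC1, was the lowest by size in this list at -0.50 (8.08 FPKM with ARV-825 and 11.9 with OTX015).

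ADM had 2.96, 2.24 and 9.04 FPKM in the ARV-825 libraries, 12.4, 31.5 and 11.8 in the OTX015 libraries, and 7.60, 7.51 and 7.33 in control. The high libraries were the same as for DDIT4, at 3.48 and 2.60 times the mean of the other two of their group, so that 1 ARV-825 library lay above control and 2 below. Without them ADM averaged 2.60 FPKM with ARV-825, 12.1 with OTX015 and 7.48 in control. The difference between ARV-825 and control was -0.75 ± 0.415 (SE) with all libraries and -1.24 without those 2, and that between OTX015 and control was 1.06 and 0.63. Over the 9 drug libraries the log2 levels of DDIT4 and ADM had a Pearson r of 0.946, a description over libraries that share their drug group. The adrenomedullin receptor CALCRL and its partners RAMP1, RAMP2 and RAMP3 were below the filter. The amidating enzyme PAM passed it and was higher with ARV-825 (26.3 FPKM) than with OTX015 (20.0 FPKM; log2 difference 0.38, limma adjusted p = 0.00223).

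Among 16 tested genes of the hypoxia pathway, 10 were lower and 1 higher with ARV-825 than with OTX015. These were 62.5% and 6.25% of the list, beside 33.4% and 24.7% of all tested genes. The glucose transporter SLC2A1 had the largest difference, averaging 18.5 FPKM with ARV-825, 34.2 with OTX015 and 32.3 in control (-0.85 ± 0.0910, limma adjusted p = 2.91e-05). ARNT, the partner subunit of the hypoxia-inducible factors, averaged 24.2 FPKM with ARV-825, 39.3 with OTX015 and 26.0 in control (-0.68, limma adjusted p = 3.70e-05). HIF1A differed by -0.43 and the histone demethylase KDM3A by -0.65, while KDM3A stood above control with either drug. VEGFA, a classic hypoxia target, did not pass the test between the drugs, at 17.5 FPKM with ARV-825 and 17.7 with OTX015, and NDRG1 was the gene that was higher (0.23).

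FOXO1 had 2.17, 2.20 and 2.01 FPKM in the ARV-825 libraries, 5.15, 5.40 and 5.50 in the OTX015 libraries, and 3.78, 3.86 and 3.71 in control. The libraries of each group lay close together and apart from the others, at 56.2% of control with ARV-825 and 141% with OTX015. FOXO3 averaged 11.2 FPKM with ARV-825, 16.8 with OTX015 and 8.48 in control, so it was above control with either drug and lower with ARV-825 than with OTX015 (-0.54 ± 0.0780, limma adjusted p = 0.000196). FOXO4 did not pass the test in any of the 3 drug comparisons, at 4.47 FPKM with ARV-825, 4.87 with OTX015 and 4.26 in control. Of 12 tested FOXO factors and regulators, 2 were higher and 7 lower with ARV-825 than with OTX015. These were 16.7% and 58.3% of the list, beside 24.7% and 33.4% of all tested genes. SGK1, a kinase that phosphorylates FOXO proteins, differed most, at 1.64 FPKM with ARV-825, 4.12 with OTX015 and 1.67 in control (-0.96, limma adjusted p = 2.25e-05).

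Of 15 tested FOXO target genes, 4 were higher and 8 lower with ARV-825 than with OTX015. These were 26.7% and 53.3% of the list, beside 24.7% and 33.4% of all tested genes. CITED2, a transcriptional coregulator, averaged 23.5 FPKM with ARV-825, 47.4 with OTX015 and 72.9 in control (ARV-825 minus OTX015 -0.98 ± 0.0504, limma adjusted p = 6.36e-07). TRIB1, a pseudokinase, stood on opposite sides of control as FOXO1 did, at 2.48 FPKM with ARV-825, 5.02 with OTX015 and 3.50 in control. BCL6 (0.52) and GADD45A (0.44) were higher with ARV-825 than with OTX015, and each rose over control with either drug. KLF2 averaged 63.6 FPKM with ARV-825, 72.4 with OTX015 and 6.06 in control, and its difference between the drugs did not pass the test.

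PPP4R3A had 29.9, 28.2 and 29.3 FPKM in the ARV-825 libraries, 58.7, 57.2 and 57.0 in the OTX015 libraries, and 51.6, 56.3 and 54.6 in control. ARV-825 was at 53.9% of control, and OTX015, at 106%, was close to it although the libraries did not overlap. The difference between ARV-825 and OTX015 was -0.96 ± 0.0437 (SE). The alternative regulatory subunit PPP4R3B averaged 28.3 FPKM with ARV-825, 37.7 with OTX015 and 32.0 in control (-0.40 ± 0.0446, limma adjusted p = 3.68e-05). The regulatory subunit PPP4R1 differed by -0.63, at 6.05 FPKM with ARV-825 and 9.82 with OTX015. The catalytic subunit PPP4C did not pass the test, at 69.6 FPKM with ARV-825 and 76.1 with OTX015 (-0.13, limma adjusted p = 0.0608). Of 9 tested genes of the phosphatase list, 1 was higher and 4 were lower with ARV-825 than with OTX015.

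MID1IP1 had 22.2, 22.2 and 23.3 FPKM in the ARV-825 libraries, 46.4, 45.4 and 43.2 in the OTX015 libraries, and 32.6, 31.9 and 33.9 in control. The groups did not overlap, at 68.8% of control with ARV-825 and 137% with OTX015. Of 9 tested genes of fatty acid synthesis, the process MID1IP1 acts in, 4 were higher and 1 was lower with ARV-825 than with OTX015. These were 44.4% and 11.1% of the list, beside 24.7% and 33.4% of all tested genes. The desaturase SCD averaged 96.5 FPKM with ARV-825, 64.7 with OTX015 and 67.7 in control (0.57 ± 0.0709, limma adjusted p = 7.31e-05), and ACACA, an acetyl-CoA carboxylase, differed by 0.46. ELOVL6, a fatty acid elongase, had the largest difference (0.95, limma adjusted p = 0.0227), at 4.44 FPKM with ARV-825, 1.62 with OTX015 and 7.68 in control. Its ARV-825 libraries spread widely (1.82, 5.43 and 6.05 FPKM) and overlapped those of OTX015 (1.31, 1.60 and 1.95). The MID1IP1 paralog THRSP and the partner MID1 were below the filter.

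LIN7B had 0.433, 0.295 and 0.675 FPKM in the ARV-825 libraries, 3.57, 3.50 and 1.70 in the OTX015 libraries, and 1.65, 1.72 and 2.03 in control. The ARV-825 libraries were all below 1 FPKM, and the third OTX015 library lay within the control range. The difference between ARV-825 and OTX015 was -1.39 ± 0.184 (SE). The protein-coding gene C19orf73 overlaps LIN7B on the opposite strand and averaged 0.166 FPKM with ARV-825, 0.715 with OTX015 and 0.745 in control. Whether reads were assigned by strand is not stated, so the reads of the pair cannot be told apart. Opposite-strand genes also overlap PHF3 (EYS), MID1IP1 (MID1IP1-AS1), DDIT4 (DDIT4-AS1), IRF2BP2 (AL160408.2) and FOXO1 (RLIMP1), with the same limit. FOXO1 is overlapped on its own strand by LINC00598. The paralogs LIN7A (0.12, limma adjusted p = 0.0506) and LIN7C (-0.39, limma adjusted p = 0.119) did not pass the test between the drugs. Of 7 tested genes of the scaffold list, 1 was higher (APBA2, 9.73 FPKM with ARV-825 against 4.43 with OTX015) and 1 was lower (DLG1, 10.2 FPKM with ARV-825 against 15.3 with OTX015).

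**Figure D3:**
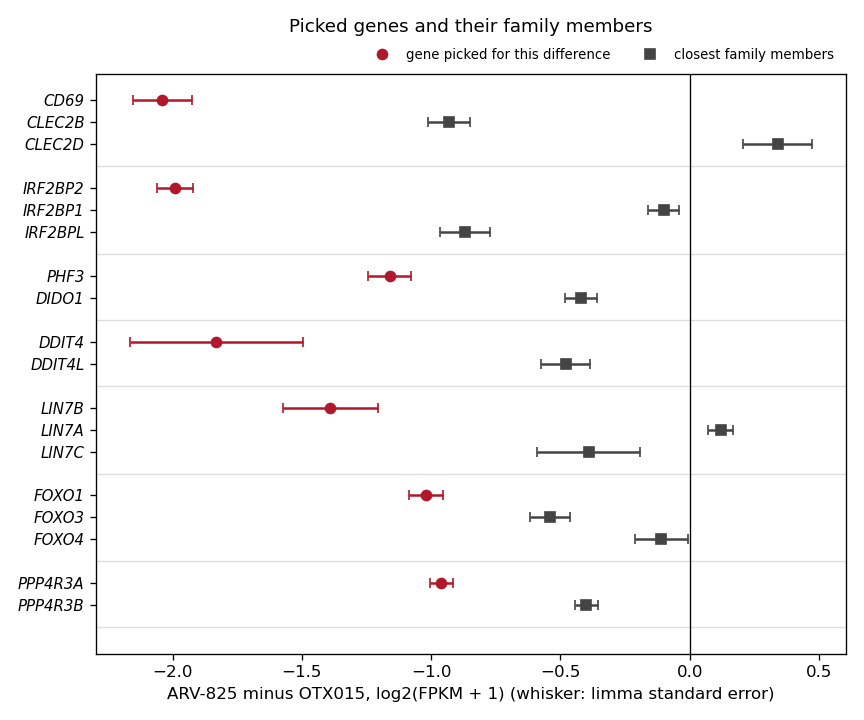
ARV-825 minus OTX015 on the log2(FPKM + 1) scale for 7 of the picked genes (red circles). Under each are its closest family members that were tested (dark squares), for CD69 only CLEC2B and CLEC2D. Whiskers are limma standard errors. Each picked gene lies left of its relatives, as its choice makes likely, and CLEC2B (-0.93), IRF2BPL (-0.87), FOXO3 (-0.54), DDIT4L (-0.48), DIDO1 (-0.42) and PPP4R3B (-0.40) also lie left of 0 with adjusted p under the threshold.

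Over all 11 lists of relatives and pathway genes, 114 genes were tested in the drug libraries. Between ARV-825 and OTX015, 26 of them were higher and 45 lower (22.8% and 39.5%), beside 24.7% and 33.4% of all tested genes. Between ARV-825 and control, 44 were higher and 39 lower (38.6% and 34.2%), beside 35.8% and 38.4% of all tested genes. Between OTX015 and control, 55 were higher and 37 lower (48.2% and 32.5%), beside 36.1% and 33.5% of all tested genes. The median difference of the listed genes between ARV-825 and OTX015 was -0.10, against -0.04 over all tested genes. The 3 drug comparisons share their libraries, so their counts are not independent of each other.

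The nearest protein-coding genes on either side of the 9 genes were also read. Of 11 that were tested, 3 were higher and 4 lower with ARV-825 than with OTX015, with a median difference of -0.09. Over all tested genes, 24.7% were higher and 33.4% lower. DNAJB12, a membrane cochaperone next to DDIT4, had the lowest value, at 7.37 FPKM with ARV-825, 15.1 with OTX015 and 15.3 in control (-0.95 ± 0.0629, limma adjusted p = 1.91e-06). On the other side of DDIT4, ANAPC16 was higher with ARV-825 than with OTX015 (0.15, limma adjusted p = 0.0290). TARBP1, beside IRF2BP2, was higher with ARV-825 (10.1 FPKM, against 6.37 with OTX015), and TOMM20 on the other side of IRF2BP2 was lower (-0.26). Both neighbours of FOXO1, MRPS31 (-0.44) and COG6 (-0.24), were lower.

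The genes whose levels followed each of the 9 most closely over the 9 drug libraries were sought among 8300 genes averaging 5 FPKM or more, by Pearson r of the log2 values. The libraries share 3 drug groups, so r mostly follows the order of the group means and is given as a description. PPP4R3A was followed by the blood transcription factor LYL1 (0.998) and by DNAJC14 (0.997), IRF2BP2 by the splicing factor SRSF3 and the RNA-binding protein ZFP36L2 (0.997 each), and FOXO1 by SCAF8 and MAU2 (0.995 each). MID1IP1 was followed by TEX2 (0.994) and by DUSP6 (0.992), a phosphatase of ERK kinases. PHF3 was followed by CLTC (0.994) and SRCAP (0.992), CD69 by CDC42SE2 (0.991) and PPP2R2A (0.990), and LIN7B by SYS1 and SARS (0.984 each). The closest genes to DDIT4 were CCDC28A (0.962) and HSF2 (0.953), and to ADM VGLL4 (0.947) and RELA (0.943). Between pairs of the 9 genes, r was lowest for IRF2BP2 and DDIT4 at 0.439.

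The structure of the genes was not part of their choice. By GENCODE release 29, 5 of the 9 had at most 3 exons (IRF2BP2, DDIT4, ADM, MID1IP1 and FOXO1), as did 12.1% of 10766 tested genes. A span of at most 10000 bases was found in 6 of the 9, and in 18.8% of tested genes. The extremes were DDIT4 with a span of 2117 bases and FOXO1 with 196645, beside a median of 31962 over tested genes. The word ATTTA, the core of AU-rich elements, occurred at least once in the annotated 3′ UTR of 8 of the 9 genes, all but DDIT4, and in 65.9% of tested genes. PHF3 had 13 copies and IRF2BP2 and FOXO1 had 8 each. These counts are over genes picked by other values, and no test was made.

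In the knockdown experiment, RUNX1 itself had 37.2, 42.9 and 36.0 FPKM in the RUNX1 shRNA libraries, against 69.8, 72.2 and 69.8 in shNT (54.8% of shNT, log2 difference -0.85 ± 0.0589, limma adjusted p = 3.71e-05). RUNX3, which the titles name, averaged 28.4 FPKM with RUNX1 shRNA and 27.0 with shNT and did not pass the test (limma adjusted p = 0.341). Over the 15 libraries, the sum of FPKM was 554570 to 656995 and 10496 to 10927 genes reached 1 FPKM. Such genes numbered 10496 to 10588 with ARV-825, 10638 to 10703 with OTX015 and 10738 to 10780 in untreated control. Of 10 myeloid markers, 8 averaged at least 1 FPKM over the drug libraries, led by LYZ at 493 FPKM, with KIT near 0. None of 8 epithelial and fibroblast markers reached 1 FPKM. Sequencing depth is unknown.

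Of the 9 genes, 1 was higher (CD69), 1 was lower (ADM) and 7 did not pass the test after RUNX1 shRNA, beside 13.5% higher and 13.8% lower of 10925 genes tested. CD69 had 2.69, 2.02 and 2.37 FPKM in the RUNX1 shRNA libraries, against 1.21, 1.14 and 1.31 in shNT. It rose to 194% of shNT (log2 difference 0.60, 95% interval 0.38 to 0.81, limma adjusted p = 0.00246), and every RUNX1 shRNA library lay above every shNT library. At 1.22 FPKM in shNT, CD69 was near the filter, above only 2.05% of the tested genes. The summed level of the 16 T and NK cell markers was 17.1 to 17.6 FPKM with RUNX1 shRNA and 23.9 to 25.2 with shNT. Of these markers NCAM1 was the highest, at 10.7 FPKM with RUNX1 shRNA and 13.3 with shNT. The summed level of the 10 B cell markers was 49.9 to 54.2 FPKM with RUNX1 shRNA and 53.0 to 56.8 with shNT. Like CD69, CLEC2B rose (15.9 FPKM, against 12.2 in shNT). CLEC2D fell to 2.93 FPKM, against 5.40 in shNT (-0.71, limma adjusted p = 0.00107).

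ADM had 3.62, 2.90 and 4.11 FPKM in the RUNX1 shRNA libraries, against 5.05, 6.17 and 5.38 in shNT. It was at 64.0% of shNT (log2 difference -0.53, 95% interval -0.78 to -0.28, limma adjusted p = 0.00888), and the libraries did not overlap. DDIT4, which went with ADM in the drug libraries, had 15.6, 15.2 and 14.1 FPKM with RUNX1 shRNA, against 13.2, 16.3 and 17.6 with shNT, and the groups overlapped (-0.06, 95% interval -0.27 to 0.15, limma adjusted p = 0.670). Of 16 tested hypoxia genes, 3 rose and 7 fell after RUNX1 shRNA. These were 18.8% and 43.8% of the list, beside 13.5% and 13.8% of all tested genes. SLC2A1 fell to 20.7 FPKM, against 41.1 in shNT (-0.96, limma adjusted p = 5.44e-05), NDRG1 to 27.6, against 45.3 in shNT, and ARNT to 17.4, against 27.2 in shNT. HIF1A rose (0.30), as did VEGFA (0.23).

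**Figure D4:**
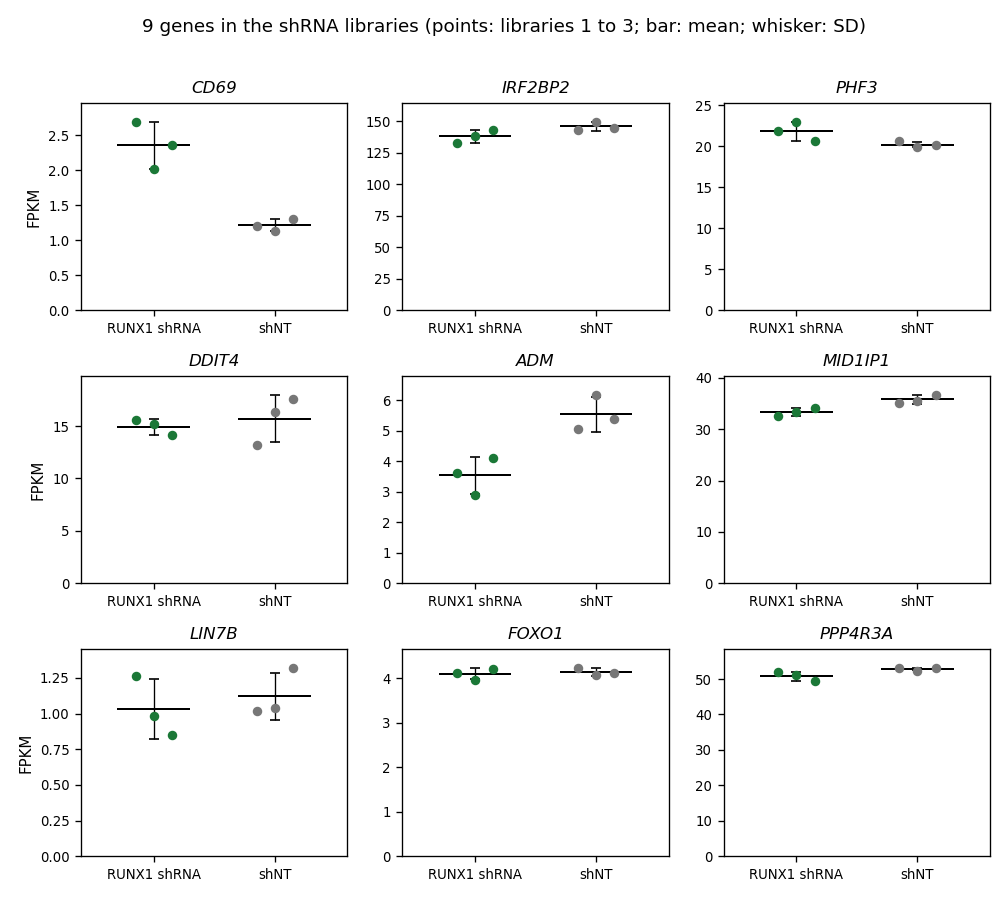
FPKM of the 9 genes in the 3 RUNX1 shRNA and 3 shNT libraries, 1 panel per gene with its own linear axis; points are libraries 1 to 3 from left to right, bars are means and whiskers SD. CD69 averaged 2.36 FPKM with RUNX1 shRNA against 1.22 with shNT and ADM 3.54 with RUNX1 shRNA against 5.53 with shNT, and the other panels show groups whose differences did not pass the test.

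The other 7 genes had small differences after RUNX1 shRNA. IRF2BP2 had 133, 138 and 143 FPKM with RUNX1 shRNA, against 143, 149.6 and 145 with shNT (-0.08, 95% interval -0.15 to -0.00756, limma adjusted p = 0.0953); it passed without the third RUNX1 shRNA library (-0.11, limma adjusted p = 0.0445). MID1IP1 had 32.6, 33.4 and 34.2 FPKM with RUNX1 shRNA, against 35.2, 35.5 and 36.7 with shNT (-0.10, 95% interval -0.18 to -0.02, limma adjusted p = 0.0661). PHF3 had 21.8, 22.9 and 20.6 FPKM with RUNX1 shRNA, against 20.6, 19.9 and 20.1 with shNT (0.10, 95% interval -0.00298 to 0.21, limma adjusted p = 0.134). The groups did not overlap for these 3 genes or for PPP4R3A, and the share of all tested genes for which this holds was not counted. The nearest libraries of IRF2BP2 and of PHF3 had the same value to 3 digits. The intervals of IRF2BP2, MID1IP1 and PHF3 reached no farther than 0.21 from 0. PPP4R3A averaged 50.8 FPKM with RUNX1 shRNA and 52.8 with shNT (95% interval -0.12 to 0.01, limma adjusted p = 0.209). FOXO1 averaged 4.10 FPKM with RUNX1 shRNA and 4.13 with shNT (95% interval -0.15 to 0.13, limma adjusted p = 0.912). LIN7B, near the filter at 1.03 FPKM with RUNX1 shRNA and 1.12 with shNT, had the wide interval of -0.31 to 0.17 (limma adjusted p = 0.671). The median over the 9 genes was -0.06, against -0.00909 over all tested genes.

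Some relatives passed the test where the picked gene did not. FOXO3 rose to 10.7 FPKM with RUNX1 shRNA, against 8.36 with shNT (0.32, limma adjusted p = 0.00284). DDIT4L fell to 1.04 FPKM, against 1.83 with shNT (-0.47, limma adjusted p = 0.00333), and SESN3 rose to 7.25 FPKM, against 4.13 with shNT (0.69, limma adjusted p = 0.000157). LIN7C rose to 12.5 FPKM, against 7.58 with shNT, and LIN7A fell to 14.6, against 18.8 with shNT. Over all lists, 25 of 117 tested genes rose and 21 fell (21.4% and 17.9%), beside 13.5% and 13.8% of all tested genes. Levels in the drug and the shRNA libraries come from tables normalized separately, and no difference across them was tested.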

How the data were processed

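Total RNA of 15 OCI-AML5 libraries was sequenced. Values deposited by the authors came as separate tables for the 9 drug and the 6 shRNA libraries and were read as FPKM, quantile normalized by the authors going by the abbreviation in the table names. The columns state no unit. TopHat2 2.0, Cufflinks 2.0 and hg19 are listed per the submitters' processing notes, and strandedness is not stated. Depth is unknown, such values do not show changes in the total RNA of a cell, and an exact 0 may be an estimate that failed.

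Of 19620 rows, 16 pseudoautosomal copies were left out, and 28 symbols turned into dates were restored by gene ID. Each table was fitted on its own with limma 3.58.1 in R 4.3.3 on log2(FPKM + 1), for genes averaging 1 FPKM or more, with a mean-variance trend, two-sided, and Benjamini-Hochberg adjustment over all tested genes (threshold 0.05). The scale understates changes of low genes. Intervals are 95%. Fits were tested on simulated data. Groups follow the treatment labels.

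The 9 genes and the lists were chosen with earlier results of these data known. Named genes are the 9, their closest relatives and partners, the called genes of each list with the largest differences between the drugs, flanking genes, RUNX1 and RUNX3, and the 2 genes most alike to each of the 9. The relatives SESN1, SESN3, HIF1A, VEGFA, NDRG1, POLR2A and KLF2 were picked from their lists after their values were seen. The lists hold 145 genes, of which 143 were in the tables; TXNIP and APBA1 were not analysed here. The result of 1 listed gene is not reported here. Gene structure came from GENCODE release 29 and promoters from RefSeq on GRCh38.p14, builds other than hg19. Alternatives were pseudocount 0.1, no filter or a mean of 5 FPKM, median-ratio rescaling, no trend, the replicate number as a block, and leaving out each library.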

Additional observations from a re-analysis of the deposited data

How the results depend on the processing

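Under the alternatives run, no difference of the 9 genes in the drug libraries changed sign, nor did CD69 or ADM after RUNX1 shRNA, while DDIT4 and FOXO1, which did not pass that test, took values on both sides of 0. In the drug libraries 412 values moved by less than the spread and 11 by more. With pseudocount 0.1, ARV-825 minus OTX015 became -2.93 for CD69, -2.40 for LIN7B and -1.29 for FOXO1. With median-ratio rescaling it became -0.91 for MID1IP1 and PPP4R3A. On the log2(FPKM + 1) scale, 2 of the 9 genes (CD69 and IRF2BP2) were at least 2-fold lower with ARV-825 than in control. The number was 1 at a mean of at least 5 FPKM and 2 to 4 leaving out 1 library. It was 4 without the third ARV-825 library, alone or together with the second OTX015 library, an alternative chosen after seeing the data. ADM (-1.24) and LIN7B (-1.04) then joined. With all libraries LIN7B was at -0.94 on this scale, although its mean FPKM with ARV-825 was 26.0% of control. The number at least 2-fold higher with OTX015 than in control was 2 (DDIT4 and ADM), 1 to 2 leaving out 1 library, and 1 without the second OTX015 library, alone or with the third ARV-825 library. The number at least 2-fold lower with ARV-825 than with OTX015 was 7, and 4 where a mean of 5 FPKM was required, where CD69, LIN7B and FOXO1 are not tested. After RUNX1 shRNA, a mean of at least 5 FPKM left 0 higher and 0 lower of the 9 genes by limma, because CD69 and ADM are not tested there; 1 to 2 were lower leaving out 1 library. Listed relatives that fell after RUNX1 shRNA numbered 21, and 13 to 19 leaving out 1 library, lowest without the third shNT library. Over all tested genes 1512 fell, and 966 to 1436 leaving out 1 library, with 978 without the second and 966 without the third shNT library; the cause was not tested beyond the smaller number of samples. Deviations of same-numbered libraries had correlations of -0.321 to 0.0613 in the drug table and -0.00304 to 0.0612 in the shRNA table. With 3 libraries a group, these correlations cannot decide whether the numbers pair libraries, and the main fits treated the libraries as unpaired. Differently numbered drug libraries ranged from -0.224 (ARV-825 replicate 2, OTX015 replicate 1) to 0.409 (ARV-825 replicate 2, OTX015 replicate 3). Replicate 3 of ARV-825 and replicate 2 of OTX015, high for DDIT4 and ADM, had 0.226. The cause of such shared deviations was not tested. With the replicate number as a block, 1 of the 9 genes was higher and 1 lower after RUNX1 shRNA, and 25 listed relatives were higher and 41 lower with ARV-825 than with OTX015, all within 1.5 times the fit without it. Depth is unknown, and 3 libraries a group limit the precision, most for ADM (SE 0.415) and DDIT4 (SE 0.333) in the drug libraries.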

Other observations

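DDIT4 and ADM shared their high libraries, replicate 3 of ARV-825 and replicate 2 of OTX015. Among 8306 tested genes averaging 5 FPKM or more, 4 (0.0482%) were at least 1.5 times the mean of the other two libraries of the group in both of these libraries: ADM, DDIT4, BHLHE40 and the mitochondrial gene MT-ATP8. They were chosen after their values were seen. BHLHE40, a transcriptional repressor known as a hypoxia target, had 3.56, 2.35 and 6.67 FPKM with ARV-825, 10.7, 21.1 and 11.8 with OTX015, and 11.8, 11.9 and 10.1 in control. MT-ATP8 is listed at 0 in the first ARV-825 library, and its other values repeat between libraries. Taken singly, replicate 3 of ARV-825 was that high for 39 of the 8306 genes and replicate 2 of OTX015 for 12. Of the other drug-treated libraries, replicates 1 and 2 of ARV-825 were that high for 20 and 73 genes and replicates 1 and 3 of OTX015 for 5 and 53. Over all 10819 tested genes, those averaging under 5 FPKM included, 17 (0.157%) were that high in both libraries, and among them was 1 of the 16 tested hypoxia genes; none of the 4 named above is in that list.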
